A study of Rattus norvegicus with 93 samples.

Results

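In a set of brain RNA-seq libraries from outbred rats, 2 features, LOC120093067 and Zfp532, took up to 55.96% of all estimated counts in some libraries and 1.86% to 4.91% in others. The libraries were made from polyA-selected RNA of a brainstem region, the rostromedial tegmental nucleus or RMTg, and were collected for a genetic study of avoidance learning in addiction. All belong to 1 labelled group, with no treatment, behaviour, age, sex or genotype in the labels, so nothing below contrasts conditions of the study. Libraries were sorted by their numeric title, and a step of more than 50000 between neighbouring titles was taken to start a new series of numbers. What such a series stands for is not given in the sources used here. The second and the third series, B and C, were used, because both hold many libraries on each side of the split.

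Of the 92 libraries of the whole set, 59 belonged to series B and C, and 10 of these were left out because the single gene Nif3l1 held 20% or more of their counts. The 49 that remained were called feature-rich where LOC120093067 and Zfp532 together held at least 10% of the counts, and ordinary below that. Series B had 18 feature-rich and 7 ordinary libraries, and series C had 8 and 16. Each library comes from 1 labelled sample, and the 2 series share none. The labels give neither the extraction nor the library protocol. The labels of 2 used libraries, series B feature-rich library 17 and series C ordinary library 6, were corrected by the submitters after their genotypes did not match, and leaving both out moved no count or class median past the limits used here. The split uses a measured share, so every difference between feature-rich and ordinary libraries is given below as a description, with the spread over libraries and without a p-value. Libraries are numbered within their series and kind only to name them.

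The RMTg is an inhibitory nucleus of the brainstem whose GABA neurons project to midbrain dopamine neurons and are known for signalling aversive events. RNA-seq of polyadenylated RNA reads mostly messenger RNA. Ribosomal RNA, which makes up most of the RNA of a cell, lacks a long poly(A) tail and is meant to be lost in that selection. Because counts in a library compete for the same reads, each gene is given in CPM, counts per 1e+06 counts of the total outside LOC120093067, Zfp532 and 158 other ribosomal RNA features. Where 3 values are given for a set of libraries they are the lowest, the median and the highest library. A difference is the median of the feature-rich minus the median of the ordinary libraries on the scale log2(CPM + 1), which understates changes of low genes. A gene was called lower or higher at a difference of at least 1 log2 unit, and its groups were called apart where the ranges of the 2 groups did not overlap.

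LOC120093067 is annotated as ribosomal RNA in the RefSeq table of the assembly GRCr8, where it spans 4801 bases of chromosome 11, and the deposited table places it at position 236997. Zfp532 is a protein-coding gene for a zinc finger protein on chromosome 18, placed at 61350084. In series B, LOC120093067 held 5.0, 14.1 and 38.8% of all counts in feature-rich libraries and 1.32, 1.66 and 3.11% in ordinary ones. Zfp532 held 7.92, 16.2 and 42.8% and 0.938, 1.21 and 1.8%. In series C the values of LOC120093067 were 7.47, 15.8 and 28.7% in feature-rich and 1.17, 1.76 and 3.73% in ordinary libraries, and those of Zfp532 were 6.55, 23.8 and 39.3% and 0.311, 1.01 and 3.68%. The sum of the 2 features left a wide gap at the dividing share. The feature-rich library nearest to it was series B feature-rich library 9 at 19.8%, and the ordinary library nearest to it was series C ordinary library 3 at 4.91%.

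The 2 features did not keep a fixed ratio. The log2 ratio of LOC120093067 to Zfp532 was -3.1, 0.458 and 2.12 in feature-rich libraries of series B and -2.38, -0.276 and 1.88 in those of series C. In ordinary libraries it was -0.143, 0.402 and 1.73 in series B and -1.57, 0.785 and 3.01 in series C. A varying ratio was thus not particular to feature-rich libraries. Xist, the RNA that coats the inactive X chromosome, and the Y-linked helicase gene Ddx3y separated the libraries into those higher for Xist and those higher for Ddx3y. LOC120093067 was above Zfp532 in 6 of 6 feature-rich libraries of series B that were higher for Xist and in 5 of 12 that were higher for Ddx3y. In series C these numbers were 2 of 2 and 2 of 6. They were counted in feature-rich libraries only. The groups differed in this make-up too, since Ddx3y was the higher gene in 12 of 18 feature-rich against 2 of 7 ordinary libraries in series B and in 6 of 8 against 10 of 16 in series C. Its part in the differences below was not tested, but each count and gene class was also computed within the libraries of either make-up. Series C libraries higher for Xist, 2 feature-rich and 6 ordinary, are given beside a result whose difference of at least 1 log2 unit changed sign in them, and beside some others.

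Feature-rich libraries were the smaller ones. In series B their totals were 2.48, 5.95 and 13.7 M estimated counts, where M stands for 1e+06, against 9.55, 23.4 and 50.2 M in ordinary libraries. In series C they were 2.29, 3.42 and 12.7 M against 10.4, 16.4 and 35.6 M. Outside the excluded features, the totals of series C were 1.17, 1.77 and 8.74 M and 10.1, 15.7 and 34.3 M and did not overlap. In series B they were 1.2, 2.72 and 10.7 M and 9.13, 22.5 and 48.7 M, and 17 of 18 feature-rich libraries lay below every ordinary one. The 2 features also had more counts in absolute terms, with 1.04, 2.03 and 3.92 M in feature-rich and 0.351, 0.676 and 1.25 M in ordinary libraries of series B. Depth and library kind therefore cannot be told apart in series C, and in series B a single feature-rich library, library 6, reaches the ordinary libraries in counts outside the excluded features.

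**Figure D1:**
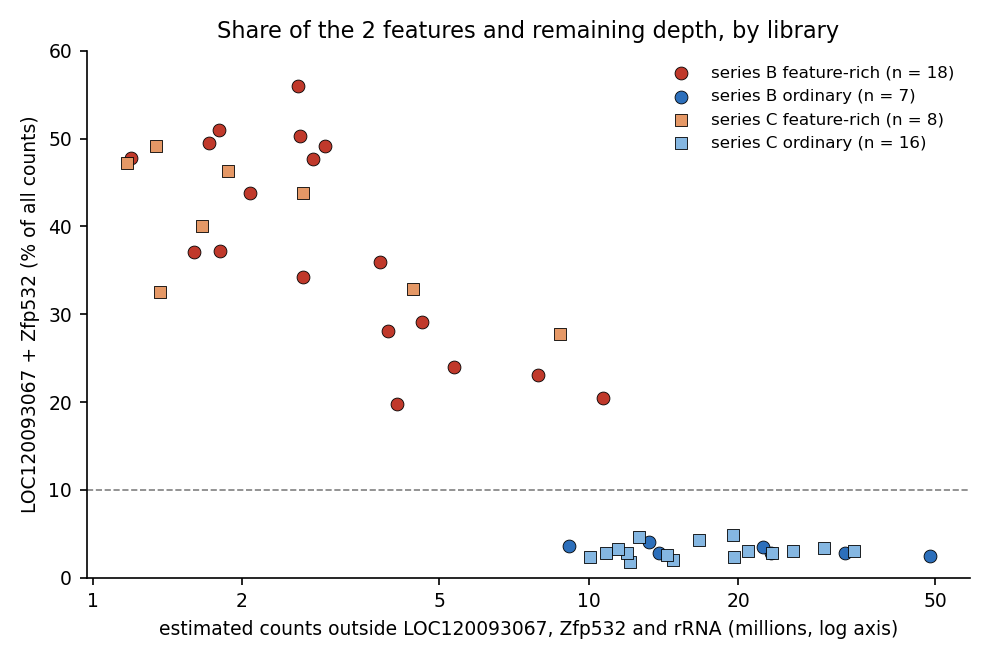
Share of all counts held by LOC120093067 and Zfp532 (vertical axis, percent) against the estimated counts left outside these and other ribosomal RNA features (horizontal log axis, M, units of 1e+06), 1 point per library, with the dividing share of 10% dashed. Feature-rich libraries lie at 19.8% or more and mostly under 5 M remaining counts, and ordinary libraries lie under 5% with 9.13 M or more.

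Other ribosomal RNA took a larger share of feature-rich libraries too. The remaining ribosomal RNA features together held 1.52, 5.87 and 9.28% of all counts in feature-rich and 0.334, 0.478 and 0.636% in ordinary libraries of series B. In series C they held 3.33, 4.46 and 7.69% and 0.312, 0.589 and 1.05%. No feature-rich library reached down to an ordinary one in either series. The largest of them, LOC120099695, had a median share of 3.03% against 0.148% in series B and of 2.38% against 0.243% in series C. Rn45s, the precursor that is cut into the mature ribosomal RNAs, had medians of 0.857% against 0.196% in series B and of 0.614% against 0.224% in series C. Rn18s and LOC120102105 had the same lowest, median and highest share in every group, so they cannot be read as 2 separate genes.

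Outside the ribosomal RNA, the counts of feature-rich libraries held less from protein-coding genes and more from noncoding classes. Protein-coding genes held 78.7%, 85.1% and 89.7% of the remaining counts in feature-rich and 90.6%, 92.5% and 94.05% in ordinary libraries of series B. Long noncoding RNAs held 8.40%, 12.5% and 17.6% against 5.78%, 7.30% and 9.22%. The RNA of the signal recognition particle, which guides secreted proteins to the endoplasmic reticulum, held 0.334%, 1.03% and 2.34% against 0.0129%, 0.0210% and 0.0532%. Small nucleolar RNAs, guides for the chemical modification of ribosomal RNA, held 0.208%, 0.564% and 2.32% against 0.0182%, 0.0383% and 0.0603%. For these 2 small classes no feature-rich library of series B overlapped an ordinary one. Most counts of each class typically came from a single feature. Rn7sl1 is the only signal recognition particle RNA in the table. LOC120097580 held a median of 96.2% of the small nucleolar RNA counts of a feature-rich library in series B and 97.8% in series C. On its own LOC120097580 exceeded every ordinary library in 16 of 18 feature-rich libraries of series B and 7 of 8 of series C. In series C the medians were 80.1% against 92.3% for protein-coding genes, with a lowest feature-rich value of 53.5% in library 3, and 16.3% against 7.48% for long noncoding RNAs. The signal recognition particle RNA had medians of 0.560% and 0.0197% there, and small nucleolar RNAs of 0.834% and 0.0366%. Signal recognition particle RNA and small nucleolar RNAs carry no long poly(A) tail in textbook descriptions.

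A few feature-rich libraries stood apart from the rest and touch most results below. For each library and gene class, the deviation is the median over the class of the gene's log2 value minus the ordinary median of the same series. Series B feature-rich libraries 6 and 1 had respiratory chain deviations of 1.14 and 0.79, above all 7 ordinary libraries, while the other 16 lay between -3.39 and -0.83. The same 2 libraries had ribosomal protein deviations of 1.41 and 1.34 and long neuronal gene deviations of -0.77 and -0.71, opposite in sign to the medians of the group. They had the largest totals of the feature-rich libraries of series B, 13.7 and 10.6 M, the smallest shares of other ribosomal RNA, 1.52% and 1.96%, and 20.5% and 23.1% of counts in the 2 features. In series C, feature-rich libraries 1 and 6 were nearest to the ordinary ones, with respiratory chain deviations of -0.30 and -0.66 and totals of 12.7 and 6.92 M. These were the 2 feature-rich libraries of series C that were higher for Xist. Among the ordinary libraries, series C library 14 had a respiratory chain deviation of -1.21, while the other 15 lay between -0.14 and 0.34. A setting without these 4 feature-rich libraries, chosen after seeing the data, is given beside the results as the reduced set, with 16 feature-rich libraries in series B and 6 in series C.

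**Figure D2:**
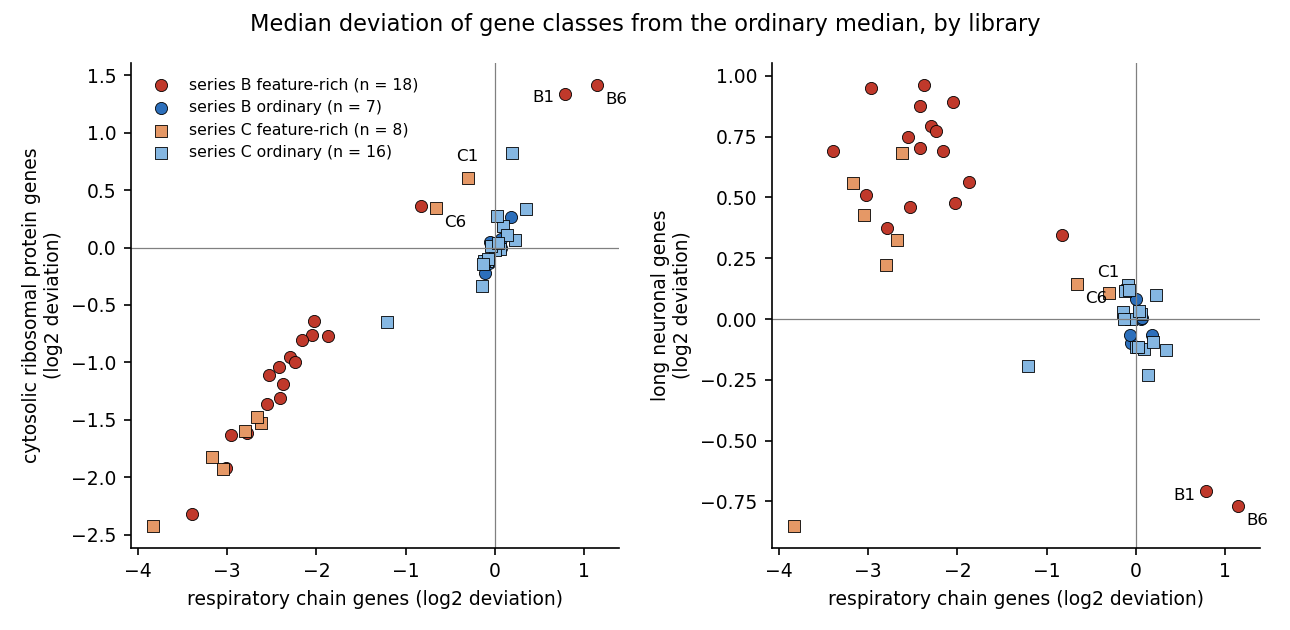
Median log2 deviation from the ordinary median of the series, 1 point per library, for cytosolic ribosomal protein genes (left) and long neuronal genes (right) against respiratory chain genes (horizontal axes). Most feature-rich libraries lie at respiratory chain deviations of -3.83 to -1.87, and the labelled libraries B6 and B1 lie on the far side of the ordinary libraries at 1.14 and 0.79 (B and C give the series, the number the feature-rich library).

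Over all genes that passed the low-value filter, lower calls outnumbered higher ones. In series B, 4492 of 20694 genes were lower (21.7%) and 3386 were higher (16.4%) in feature-rich libraries. The groups were apart for 2144 genes in the lower direction (10.4%) and for 781 in the higher direction (3.77%). In series C, 6396 of 19824 genes were lower (32.3%) and 2509 higher (12.7%), with the groups apart for 2476 (12.5%) and 623 (3.14%). The split between the directions depended on the scaling. With median-ratio scaling, series C gave 4617 lower and 3737 higher genes, and series B 4243 and 3539. With totals over every feature, series B gave 8245 lower and 1112 higher genes, and series C 9798 and 858. The median difference of all genes was -0.08 in series B and -0.43 in series C, and it moved to -0.03 and -0.09 with median-ratio scaling and to -0.80 and -1.03 with totals over every feature. Gene classes are therefore read beside these medians, and classes close to them change sign from scaling to scaling. Counts of called members are likewise read beside the shares of all genes given above. Libraries 6 and 1 limit how many groups were apart in series B, where the reduced set had 3239 genes apart lower and 2526 apart higher. In series C it had 5356 and 949. With counts thinned to equal totals, fewer groups were apart, 1272 lower and 386 higher in series B and 1625 and 305 in series C. With the dividing share at 20%, where series B library 9 counts as ordinary, the groups of series B were apart for 33 and 45 genes. Within series C libraries higher for Xist, 2985 genes were lower.

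Both series, which share no library, gave much the same picture gene by gene. Of 19507 genes kept in both, 4284 (22%) were lower in both, which is 95.4% of the genes lower in series B and 67.4% of those lower in series C. There were 2296 genes (11.8%) higher in both, which is 70.3% of those in series B and 91.6% of those in series C. The groups were apart in both series for 1365 genes in the lower direction (7%) and for 318 in the higher direction (1.63%). Only 3 genes (0.0154%) passed 1 log2 unit in opposite directions. Across these genes, which are not independent replicates, the differences of the 2 series had a Pearson correlation of 0.95.

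The nuclear-encoded genes of the respiratory chain, which makes most of the ATP of a neuron, were lower nearly throughout. In series B, 73 of 76 genes were lower and 0 higher, with a median difference of -2.25 and a range of -3.19 to -0.67. In series C, 75 of 76 were lower and 0 higher, with a median of -2.80. The median over the class in each library deviated by -3.39, -2.33 and 1.14 in feature-rich (SD 1.21, n = 18) and by -0.12, 0.00 and 0.18 in ordinary libraries (SD 0.10, n = 7) of series B. In the reduced set the median differences were -2.32 and -2.94. That set left out libraries by their respiratory chain deviation, so larger differences of this class were built into the choice. Within libraries higher for Xist, series C had a median of -0.53, from the 2 feature-rich libraries nearest to the ordinary ones.

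All 5 complexes of the chain had medians below -1.8. Median differences in series B were -2.49 for the 36 genes of complex I, which takes electrons from NADH, -1.89 for the 4 of complex II, -2.07 for the 10 of complex III, -2.59 for the 11 of complex IV, which passes electrons to oxygen, and -1.81 for the 15 of the ATP synthase. In series C they were -2.97, -2.50, -2.49, -3.03 and -2.41. Uqcr11, a small subunit of complex III, had 8.27, 38.4 and 1582 CPM in feature-rich and 267, 359 and 403 CPM in ordinary libraries of series B, a difference of -3.19 (SD over libraries 1.99 and 0.20). Within series C libraries higher for Xist it differed by 0.48. The highest feature-rich value lay above all ordinary ones, so the groups overlapped although the medians were far from each other. Sdha, the flavoprotein of complex II, had 22.7, 59.2 and 130.5 CPM in feature-rich and 164, 189 and 205 CPM in ordinary libraries, and here the groups were apart. In series C Sdha had 19.9, 36.4 and 45.9 CPM in feature-rich and 109, 173 and 238 CPM in ordinary libraries, again apart. Ndufv2, a core subunit of complex I, differed by -3.02 in series B and -3.57 in series C, and Cox5b of complex IV by -2.91 and -3.37. Ndufc2 was the complex I gene that moved least, at -0.67 and -0.54. Atp5mc1, which encodes the membrane ring of the ATP synthase, had medians of 31.7 against 267 CPM in series B and 18.6 against 275 CPM in series C.

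The protein-making and protein-degrading machinery was lower as well, but with more members that did not pass. Of the genes for cytosolic ribosomal proteins, 42 of 78 were lower and 1 higher in series B (median -1.07), and 58 of 78 were lower and 1 higher in series C (median -1.59). The gene that was higher in both was Rpl12, at 1.22 and 1.29, with 43.5, 66.1 and 105 CPM in feature-rich and 22.8, 27.7 and 51.3 CPM in ordinary libraries of series B. Rps19 lay at the other end, with 14.8, 38 and 1073 CPM in feature-rich and 227, 249 and 301 CPM in ordinary libraries and a difference of -2.68, or -3.13 in series C and 0.62 within its libraries higher for Xist. Ribosomal protein genes have many near-identical processed copies in rodent genomes, among which estimated counts can be split. The class deviated above the ordinary median in 3 of the 18 feature-rich libraries of series B (libraries 6, 1 and 3, the last at 0.36) and in 2 of the 8 of series C (0.61 and 0.35). Within libraries higher for Xist its median in series C was 0.40, opposite in sign, and in the reduced set it was -1.78.

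Mitochondrial ribosomal proteins, which translate the few proteins encoded in mitochondria, were lower in 64 of 76 genes of series B (median -1.99) and 66 of 75 of series C (median -2.51), with 3 higher in each. Genes for subunits of the proteasome, which degrades ubiquitin-tagged proteins, were lower in 22 of 31 and 24 of 31 members, with medians of -1.52 and -2.04. The class deviated below every ordinary library in all 18 feature-rich libraries of series B and all 8 of series C, libraries 6 and 1 included (-0.27 and -0.22 against -0.07 for the lowest ordinary library). Psmc4, an ATPase of the proteasome cap, had 9.73, 23.7 and 80.2 CPM in feature-rich and 135, 147 and 157 CPM in ordinary libraries of series B, with the groups apart there and in series C. Psmb2, of the proteolytic core, differed by 0.65 and 0.5 (-1.38 within series C libraries higher for Xist), and its groups overlapped.

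Glycolysis genes were lower in 12 of 16 members in series B and 13 of 16 in series C, with medians of -1.79 and -2.47 and 0 higher. Aldoa, the aldolase of muscle and brain, had 106, 297 and 1063 CPM in feature-rich and 1219, 1413 and 1541 CPM in ordinary libraries in series B and 121, 165 and 623 CPM in feature-rich and 975, 1449 and 1917 CPM in ordinary libraries in series C, apart in both. Tpi1, the triosephosphate isomerase, differed by -2.33 and -2.91, also apart in both. The neuronal enolase gene Eno2 did not pass, at 0.34 and 0.13, nor did the phosphofructokinase gene Pfkl, at 0.73 and 0.12. The glycolysis class lay below every ordinary library in all 26 feature-rich libraries.

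Abundant cytosolic proteins had some of the largest differences. Of 25 genes, 15 were lower in series B and 17 in series C, with medians of -1.54 and -1.73. Ubb, a polyubiquitin gene, had 149, 369 and 2509.9 CPM in feature-rich and 3365, 3749 and 3941 CPM in ordinary libraries of series B and 139.8, 197 and 1212 CPM in feature-rich and 2675, 3819.7 and 4637 CPM in ordinary libraries of series C, apart in both. Ftl1, the ferritin light chain that stores iron, had medians of 103 against 1237 CPM and 80.3 against 1231 CPM, and Ppia, the cyclophilin A often used as a reference gene, of 196 against 2259 CPM and 125 against 2128 CPM. Ywhaz, a 14-3-3 protein that is used as a reference gene too, lay on the other side, with 271, 1638 and 3739 CPM in feature-rich and 767, 824 and 909 CPM in ordinary libraries of series B and differences of 0.99 and 1.06. The log2 distance between Ppia and Ywhaz therefore moved by the sum of both differences, and by their medians the 2 reference genes put the 2 kinds of libraries in opposite order. In the 8 libraries of series C higher for Xist, 2 of them feature-rich, Ywhaz differed by -1.42. Among 14 heat shock genes, 8 were lower in series B and 9 in series C (medians -1.19 and -1.57). The small heat shock gene Cryab was at -2.73 and -3.52, while the inducible chaperone gene Hsp90aa1 was at 1.31 and 1.1.

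**Figure D3:**
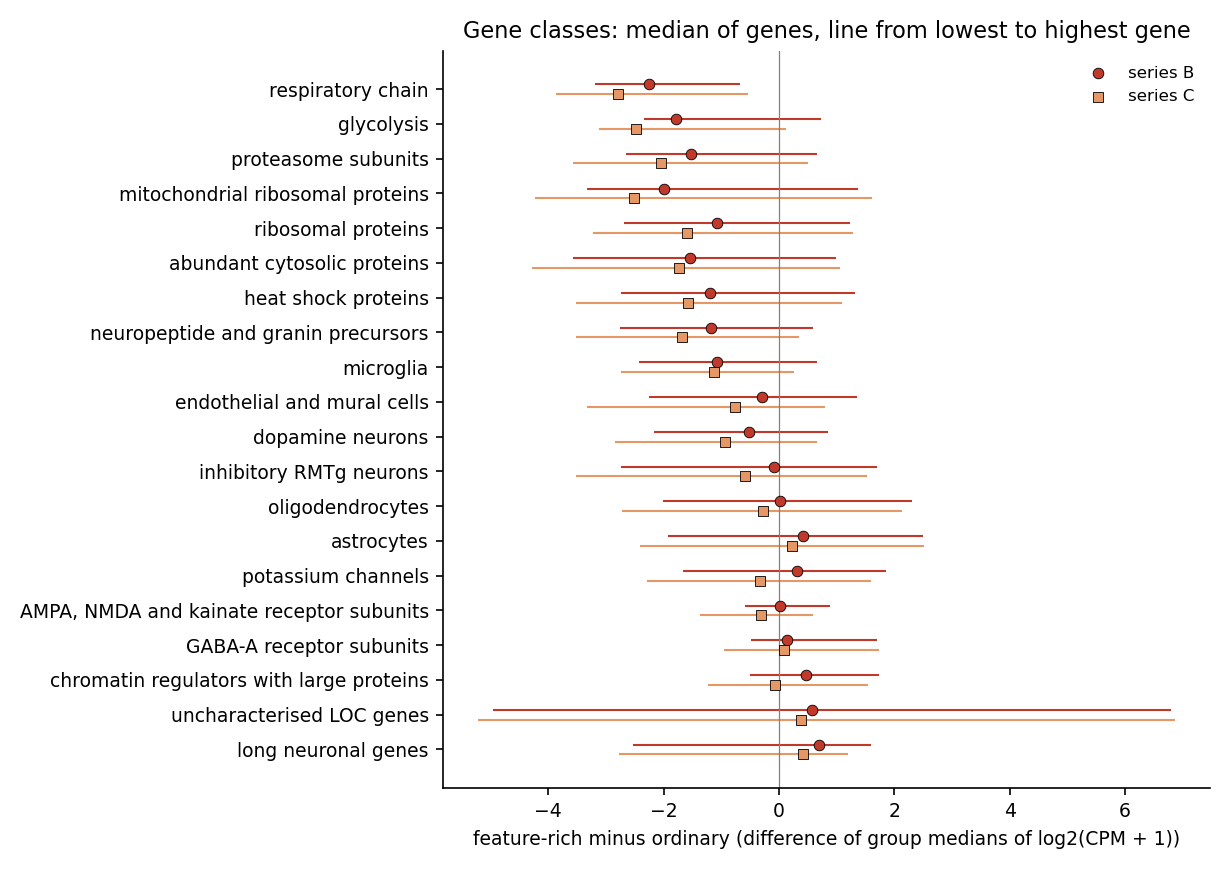
Difference between feature-rich and ordinary libraries (horizontal axis, log2) for 20 gene classes, with the median of the class as a point and a line from the lowest to the highest gene, for series B and series C. Respiratory chain genes lie at medians of -2.25 and -2.80, and long neuronal genes at 0.69 and 0.41, which turn to -0.17 and -0.39 with totals over every feature, and other classes near 0 change sign with the scaling too.

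Neuronal genes with a long genomic span had a class median above that of all genes. Of 24 long neuronal genes, 6 were higher and 1 lower in series B (median 0.69), and 3 were higher and 1 lower in series C (median 0.41), although with totals over every feature these medians were -0.17 and -0.39. The share of higher genes was 25% in series B, where 16.4% of all genes were higher, and 12.5% in series C, near the 12.7% of all genes. By library, the class deviated by -0.77, 0.69 and 0.96 in feature-rich and -0.10, 0.00 and 0.12 in ordinary libraries of series B, with 16 of 18 above and 2 of 18 below every ordinary library. In series C, 6 of 8 lay above every ordinary library and 1, library 3, lay below at -0.85. Fgf14, which binds sodium channels at the axon start, had 49.1, 162 and 258 CPM in feature-rich and 50.8, 52.9 and 58.1 CPM in ordinary libraries of series B and differed by 1.59, or 1.2 in series C. Dlg2, a postsynaptic scaffold, differed by 1.34 and 1.02. Macrod2 differed by 1.37 and 0.74. Of the 24 members, 5 lay below the median of all genes in series B and 4 in series C. The 1 member called lower was Fhit, a small hydrolase whose gene spans 1507500 bases. In series B it had 0, 4.08 and 24.1 CPM in feature-rich and 25.5, 28.3 and 37.7 CPM in ordinary libraries. In series C it had 0.731, 3.09 and 11.2 CPM in feature-rich and 19.2, 27 and 46.8 CPM in ordinary libraries, apart in both.

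Classes of neuronal receptors and channels had medians above that of all genes, by 0.09 to 0.52 log2 units. For 15 subunits of AMPA, NMDA and kainate receptors, which carry fast glutamate signals, 0 genes passed 1 log2 unit in series B (median 0.01, or -0.90 with totals over every feature) and 3 were lower in series C (median -0.31, or 0.19 with median-ratio scaling). Grin1, the obligatory NMDA receptor subunit, was at -0.59 and -1.36, and Grin2b at 0.88 and 0.19. Of 13 GABA-A receptor genes kept, only Gabra2 passed (class medians 0.14 and 0.09, or -0.55 and -0.49 with totals over every feature). Gabra2 was at 1.7 and 1.73 (-0.12 within series C libraries higher for Xist), with 32.6, 190 and 318 CPM in feature-rich and 48.3, 57.9 and 64.1 CPM in ordinary libraries of series B. Of 32 potassium channel genes, 3 were higher and 1 lower in series B and 1 higher and 2 lower in series C, with medians of 0.31 and -0.33 that changed sign, in series B to -0.56 with totals over every feature and in series C to 0.12 with median-ratio scaling. The leak channel gene Kcnk9 was at 1.85 and 1.59, and the sodium-activated Kcnt1 at -1.66 and -2.29. The calcium channel subunits Cacna2d2 and Cacna2d3, from the same family, parted ways, at 1.67 and -1.09 in series B and at 1.17 and -1.91 in series C. Within series C libraries higher for Xist, Cacna2d3 was at 0.069.

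Structural and vesicle proteins of neurons were mixed. Of 24 cytoskeleton genes, 6 were lower and 3 higher in series B and 11 lower and 0 higher in series C. The lower shares were 25% and 45.8%, against 21.7% and 32.3% of all genes. The higher share in series B was 12.5%, against 16.4% of all genes. Stmn1, which destabilises microtubules, had 543, 724 and 1564 CPM in feature-rich and 1902, 2130.5 and 2348 CPM in ordinary libraries of series B and 178, 705 and 771 CPM in feature-rich and 1674, 2115 and 2406 CPM in ordinary libraries of series C, apart in both. Map2, which binds dendritic microtubules, had 605, 913 and 1182 CPM in feature-rich and 347, 433 and 568.2 CPM in ordinary libraries of series B, apart in the other direction, and differed by 0.68 in series C with overlap. Dynll2, a dynein light chain, differed by 1.42 in series B, apart, and by 0.96 in series C. Among 30 synaptic vesicle genes, 7 were lower and 1 higher in series B and 11 lower and 1 higher in series C. The lower shares, 23.3% and 36.7%, were not far from the 21.7% and 32.3% of all genes. Sncb, the beta-synuclein gene, was at -1.8 and -2.38. Rab3c, a vesicle GTPase, was at 1.46 and 1.28, and reached 325, 463 and 20179 CPM in feature-rich and 90.8, 189.8 and 252 CPM in ordinary libraries of series C, where the highest feature-rich library lay far above the median of its group.

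Gata3 and Foxp1, transcription factors of the inhibitory neurons of the RMTg, were present in every library of both kinds. Their lowest values over the 49 libraries were 30.1 and 72.8 CPM. The 11 markers of inhibitory RMTg neurons did not move together, with 3 lower and 3 higher in series B (median -0.08). In series C 4 were lower and 2 higher (median -0.60). These are 27.3% each way in series B, where all genes gave 21.7% lower and 16.4% higher. In series C they are 36.4% lower and 18.2% higher, where all genes gave 32.3% and 12.7%. Oprm1, the mu opioid receptor through which opioids silence RMTg neurons, had 7.59, 17.8 and 33.1 CPM in feature-rich and 1.66, 4.76 and 9.03 CPM in ordinary libraries of series B and differed by 1.7, or 1.53 in series C. Foxp1 had 108, 221 and 347 CPM in feature-rich and 78, 96.6 and 103 CPM in ordinary libraries of series B, apart, and differed by 1.19 and 1.11. Sst and Pnoc, precursors of the peptides somatostatin and nociceptin, went the other way, at -2.73 and -3.52 for Sst (0.23 within series C libraries higher for Xist) and at -1.68 and -2.09 for Pnoc. Sox14, a transcription factor of brainstem GABA neurons, had 10.5, 20.01 and 29 CPM in feature-rich and 34.2, 46.5 and 53.8 CPM in ordinary libraries of series B and 5.42, 16.3 and 31.5 CPM in feature-rich and 36.4, 49.7 and 59.3 CPM in ordinary libraries of series C, apart in both. Among the listed genes of GABA synthesis and packaging, Gad1 lay below the median of all genes, at -0.98 and -1.45. The vesicular transporter Slc32a1 lay above it, at 1.42 and 0.44. Gad2, another synthesis gene of the list, is not described here. In bulk tissue, fewer cells of a type and less RNA per cell cannot be told apart.

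Peptide precursors as a class were lower. Of 21 neuropeptide and granin genes, 12 were lower and 0 higher in series B (median -1.18), and 15 were lower and 0 higher in series C (median -1.69). All 26 feature-rich libraries lay below every ordinary library of their series for the class median. Penk, the enkephalin precursor, had 17.5, 46.6 and 98.3 CPM in feature-rich and 124, 182 and 216 CPM in ordinary libraries of series B and 19.3, 24.6 and 89.7 CPM in feature-rich and 138, 178 and 251 CPM in ordinary libraries of series C, apart in both. Tac1, the substance P precursor, had medians of 4.03 against 32.9 CPM and 4.05 against 31.7 CPM and was also apart in both.

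Markers of neighbouring nuclei varied more within the groups. Of 11 dopamine neuron markers, 3 were lower in series B and 5 in series C, and 0 were higher. The lower shares were 27.3% and 45.5%, against 21.7% and 32.3% of all genes. Th, the rate-limiting enzyme of dopamine synthesis, had 25, 58.5 and 459.7 CPM in feature-rich and 177, 259 and 1102 CPM in ordinary libraries of series B, where the highest ordinary library lay far above the median, and differed by -2.17 and -2.84 with overlap in both series. Nr4a2, a transcription factor of the same neurons, was at 0.85 and 0.65. The 5 serotonin neuron markers had class medians of 0.56 and 0.35, with 2 lower and 1 higher in series B and 2 lower and 0 higher in series C, where the median was -0.93 within libraries higher for Xist. The synthesis enzyme gene Tph2 had 27.1, 63 and 88.9 CPM in feature-rich and 149.9, 171 and 302 CPM in ordinary libraries of series B and 14.6, 37.2 and 75.2 CPM in feature-rich and 129, 167 and 412 CPM in ordinary libraries of series C, apart in both. The transporter Slc6a4 was at -1.1 and -2.1, and the transcription factor Fev at 1.09 and 0.35.

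Single glial markers differed in both directions. Of 12 oligodendrocyte genes, 3 were lower and 3 higher in series B and 4 lower and 3 higher in series C, with medians of 0.01 and -0.28, which are -0.83 in series B with totals over every feature and 0.11 in series C with median-ratio scaling. These are shares of 25% each way in series B and of 33.3% lower and 25% higher in series C, where all genes gave 21.7% and 16.4% and 32.3% and 12.7%. Mbp, a main protein of myelin, had 4975, 8401 and 16447 CPM in feature-rich and 22715, 31354 and 37957 CPM in ordinary libraries of series B and differed by -1.9 (SD 0.43 and 0.23), or -2.37 in series C, apart in both. Mog, on the outer surface of the same sheath, had 1028, 3266 and 6297 CPM in feature-rich and 639.8, 698 and 863 CPM in ordinary libraries of series B and 1102, 3412 and 5724 CPM in feature-rich and 499.9, 713 and 799 CPM in ordinary libraries of series C, apart in both in the other direction. Mobp and Aspa went with Mbp, at -2.01 and -1.42 in series B and -2.73 and -1.37 in series C. The tight junction gene Cldn11 went with Mog at 2.3 and 2.08, but differed by -0.33 within series C libraries higher for Xist. The distance between Mog and Mbp within a library does not depend on the scaling.

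Astrocyte markers differed in both directions too. Of 12, 3 were lower and 3 higher in series B and 3 lower and 4 higher in series C, with medians of 0.41 and 0.22, which are -0.43 and -0.59 with totals over every feature. Sox9, the transcription factor of astrocytes, had 34.7, 252 and 449.6 CPM in feature-rich and 27.2, 43.8 and 51.4 CPM in ordinary libraries of series B and differed by 2.49 and 2.52. Slc4a4, a bicarbonate transporter, differed by 1.81 and 2.0, and the glutamate transporter Slc1a2 had 471, 960.3 and 4684 CPM in feature-rich and 328, 414 and 459 CPM in ordinary libraries of series B, apart. The calcium-binding S100b and the aldolase Aldoc lay lower, at -1.92 and -1.87 in series B and at -2.42 and -2.41 in series C. S100b reached 454, 868 and 7008 CPM in feature-rich and 2723, 3294 and 4121 CPM in ordinary libraries of series B, so that the highest feature-rich library exceeded all ordinary ones, and within series C libraries higher for Xist it differed by 0.83.

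Microglia markers leaned to the lower side. Of 12, 6 were lower and 0 higher in each series, with medians of -1.07 and -1.13. C1qb, a chain of complement C1q, had 4.66, 13 and 119 CPM in feature-rich and 57.7, 74.2 and 97.9 CPM in ordinary libraries of series B and 2.19, 8.62 and 26 CPM in feature-rich and 52.7, 62.5 and 76 CPM in ordinary libraries of series C, apart in series C only. Aif1 was at -2.34 and -2.58 (0.068 within series C libraries higher for Xist), while the integrin gene Itgam was at 0.66 and 0.27. Of 13 genes of endothelial and mural cells, 3 were lower and 1 higher in series B, and 4 lower and 0 higher in series C. The lower shares, 23.1% and 30.8%, were near the 21.7% and 32.3% of all genes. Vtn, the vitronectin gene of pericytes, was at -2.25 and -3.32, apart in both, and the endothelial adhesion gene Pecam1 at 1.35 and 0.79. In precursors of oligodendrocytes, 2 of 8 genes were higher in series B and 0 in series C, where 1 was lower. Olig1 was at 1.13 and 0.88 (-1.12 within series C libraries higher for Xist), and Sox10 at -0.95 and -1.63.

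**Figure D4:**
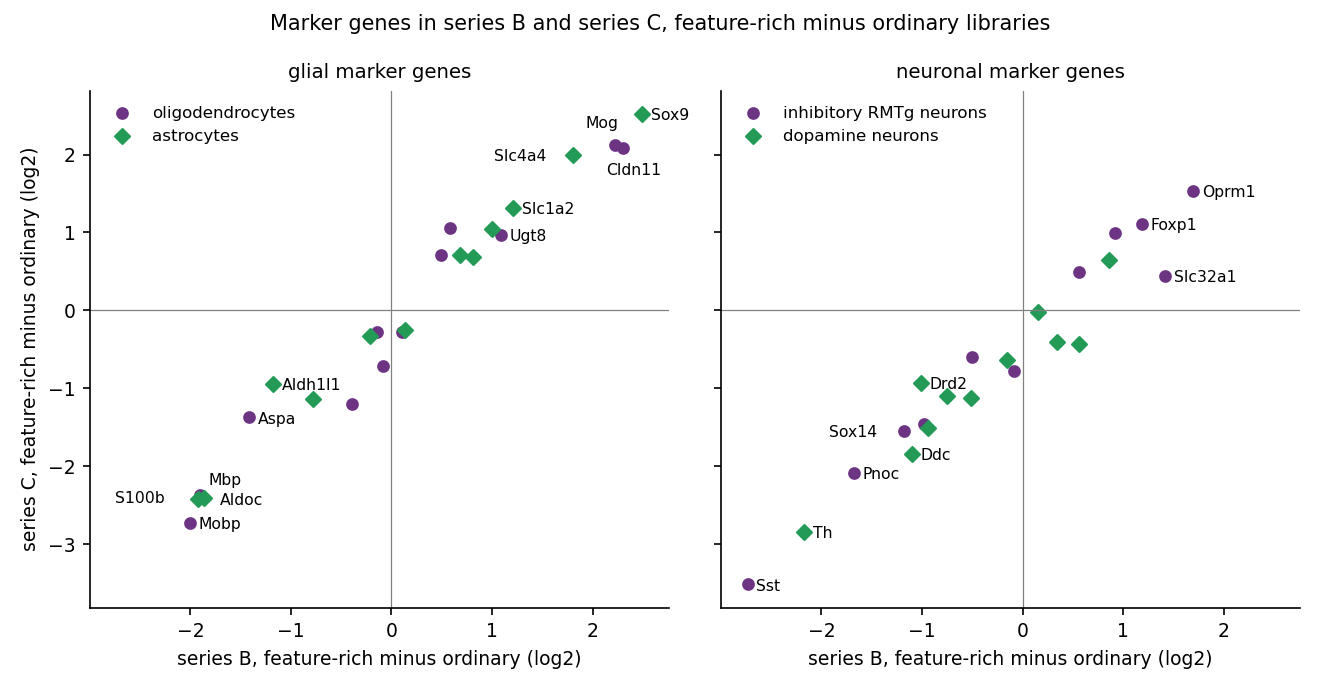
Differences between feature-rich and ordinary libraries in series B (horizontal axis, log2) and series C (vertical axis, log2), 1 point per marker gene, for oligodendrocytes and astrocytes (left) and inhibitory RMTg and dopamine neurons (right), with genes past 1 log2 unit in series B named. Markers of oligodendrocytes, of astrocytes and of inhibitory neurons each reach past -1 and past 1 in both series, from -2.73 for Sst to 2.49 for Sox9 in series B.

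Classes of regulators in the nucleus lay on either side of the median of all genes. Of 31 chromatin regulators with large proteins, 5 were higher and 0 lower in series B (median 0.46), and 2 were higher and 1 lower in series C (median -0.06). These medians were -0.40 in series B with totals over every feature and 0.42 in series C with median-ratio scaling. The share of higher genes was 16.1% in series B, near the 16.4% of all genes, and 6.45% in series C, below the 12.7% of all genes. Arid1b, a subunit of the BAF remodelling complex, had 28.5, 193 and 288 CPM in feature-rich and 45.6, 57.5 and 67.2 CPM in ordinary libraries of series B and differed by 1.73 and 1.55, and its relative Arid1a by 1.58 and 1.28. Of 12 immediate early genes kept, 2 were higher and 1 lower in series B and 2 each way in series C. Jund, of the AP-1 family, had 149, 249 and 394 CPM in feature-rich and 36, 48.4 and 137 CPM in ordinary libraries of series B, apart, and differed by 2.34 and 2.34. Fosl2 was at 1.54 and 1.37. Of 34 spliceosome and RNA-binding genes, 11 were lower and 1 higher in series B and 13 lower and 0 higher in series C, with medians of -0.51 and -0.91, below those of all genes. The small core protein gene Snrpg was at -2.38 and -2.26, and the 3' splice site factor U2af2 at 1.22 and 0.69.

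Long noncoding RNAs as a class and the best-known single ones differed in direction. The 4823 long noncoding genes kept in series B had a median of 0.57, with 31.5% higher and 4.50% lower, against a median of -0.32 for 15660 protein-coding genes, with 11.5% higher and 27.1% lower. In series C the medians were 0.39 and -0.67. Median levels in ordinary libraries were 1.46 CPM for long noncoding and 20.2 CPM for protein-coding genes in series B, and 1.82 and 20.5 CPM in series C. At so low a level log2(CPM + 1) leaves little room for lower calls. A low gene could also pass the filter through libraries of 1 kind alone. The distance between the 2 classes therefore depends in part on the filter and the scale, and their sides of 0 depend on the scaling. Yet Snhg11, a neuronal host gene of small nucleolar RNAs, had 12.5, 51.1 and 125 CPM in feature-rich and 624.7, 709 and 904 CPM in ordinary libraries of series B, apart, and differed by -3.78 and -4.73. The imprinted RNA Meg3 differed by -2.29 and -3.11. Only 5 of the 16 symbols listed as well-known nuclear long noncoding RNAs were found among the features.

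Some single genes outside these classes had larger differences than the genes named so far. Of the genes outside the lists whose groups were apart in series B, the lowest was Igip, the gene of IgA inducing protein, listed at 0, 0 and 15.4 CPM in feature-rich and at 38.1, 46.6 and 61.5 CPM in ordinary libraries. In series C Igip was listed at 0 in all 8 feature-rich libraries and at 13.7, 57.3 and 106.2 CPM in the ordinary ones. Tug1, a long noncoding RNA, was listed at 0, 0 and 25.2 CPM against 32.8, 35.3 and 54.5 CPM in series B. The other lower genes picked by rank were Tmem276-zftraf1, Pbld1, Pip5kl1, Hdac10, Rgs11, Trappc2b, Entr1, Rida, Ninj2 and Fdps, with differences of -5.3 to -2.93 in series B, and each was lower in series C too. Hdac10, a histone deacetylase family member, had 0, 1.85 and 9.17 CPM in feature-rich and 22.3, 24.5 and 31.4 CPM in ordinary libraries of series B, and Fdps, which makes farnesyl diphosphate for sterol synthesis, had 6.91, 22 and 139 CPM in feature-rich and 157, 174 and 222 CPM in ordinary libraries. Both were apart in series C as well.

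On the higher side, Adgrg5, an adhesion G protein-coupled receptor gene, had 454, 2378 and 9459 CPM in feature-rich and 14.6, 20.4 and 90.6 CPM in ordinary libraries of series B and differed by 6.79, or 7.07 in series C. Med26, a subunit of the Mediator complex, had 1406, 8927 and 29855 CPM in feature-rich and 206, 257 and 379.6 CPM in ordinary libraries of series B and differed by 5.1 and 5.41. Thsd1, a thrombospondin domain protein gene of vessels, had 1070.1, 4928 and 9625 CPM in feature-rich and 161, 168 and 251 CPM in ordinary libraries of series B and 1961, 4824 and 8112 CPM in feature-rich and 83.4, 179.5 and 259 CPM in ordinary libraries of series C, apart in both. Rn7sl1, a signal recognition particle RNA, differed by 5.61 and 4.82, apart in both. Blk, a kinase gene of B lymphocytes, had 20.8, 56.5 and 174 CPM in feature-rich and 0, 0.867 and 2.04 CPM in ordinary libraries of series B, and Prdm14, a transcription factor gene of germ cells, had 17.5, 144 and 261 CPM in feature-rich and 5.1, 5.57 and 7.81 CPM in ordinary libraries. Neither gene belongs to a cell type in the marker lists used here. The rest, Trnaa-agc61, Ccdc57, Rnf225 and Nlrp12, were higher by 4.34 to 5.1 in series B and by 4.36 to 5.78 in series C.

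For 2 of these, a gene and the gene it is named after differed in direction. Ndufb11b, whose symbol marks it as a relative of the complex I gene Ndufb11, had 7.04, 175 and 462 CPM in feature-rich and 1.44, 1.75 and 2.43 CPM in ordinary libraries of series B, a difference of 6.0, while Ndufb11 itself had 38.1, 52.2 and 484 CPM in feature-rich and 175, 198 and 240.3 CPM in ordinary libraries, a difference of -1.9. Prdx1l1 differed by 5.25 and the peroxiredoxin gene Prdx1 by -1.4. In series C the pairs stood at 6.21 and -1.94 and at 5.43 and -1.46. How alike the sequences of each pair are was not examined, and near-identical copies can share estimated counts, so these 4 values are uncertain. Ndufb11 and Prdx1 were named after their values were seen.

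Differences of protein-coding genes rose with the genomic span of the gene, introns included, as the RefSeq table gives it. In series B the median difference was -0.81 in the first of 10 equal bins of genes ordered by span (median 2.48 kb) and 0.26 in the last (median 238 kb). In series C these medians were -1.18 and -0.06. Across genes, which are not independent, the Spearman correlation between span and difference was 0.30 in each series, over 15660 and 15404 genes. On the log2(CPM + 1) scale the gradient was steepest for abundant genes. Genes were split into 3 equal bins by their level in ordinary libraries, and each of these into 5 by span. Among the genes with the highest level in series B, the median went from -1.53 in the shortest to 0.24 in the longest bin, and in series C from -1.98 to -0.09. Among the genes with the lowest level it went from -0.18 to 0.14 in series B and from -0.64 to -0.19 in series C. The median level in ordinary libraries of series B was 2.62 CPM for the lowest and 75.7 CPM for the highest level. Because the scale understates changes of low genes, the steepness cannot be compared directly between levels. Long noncoding genes rose with span too, from 0.25 to 0.79 over 5 bins of span in series B and from -0.10 to 0.58 in series C. Span is not transcript length, which was not used here, and Jund, Sox9 and Olig1 were among short genes on the higher side.

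**Figure D5:**
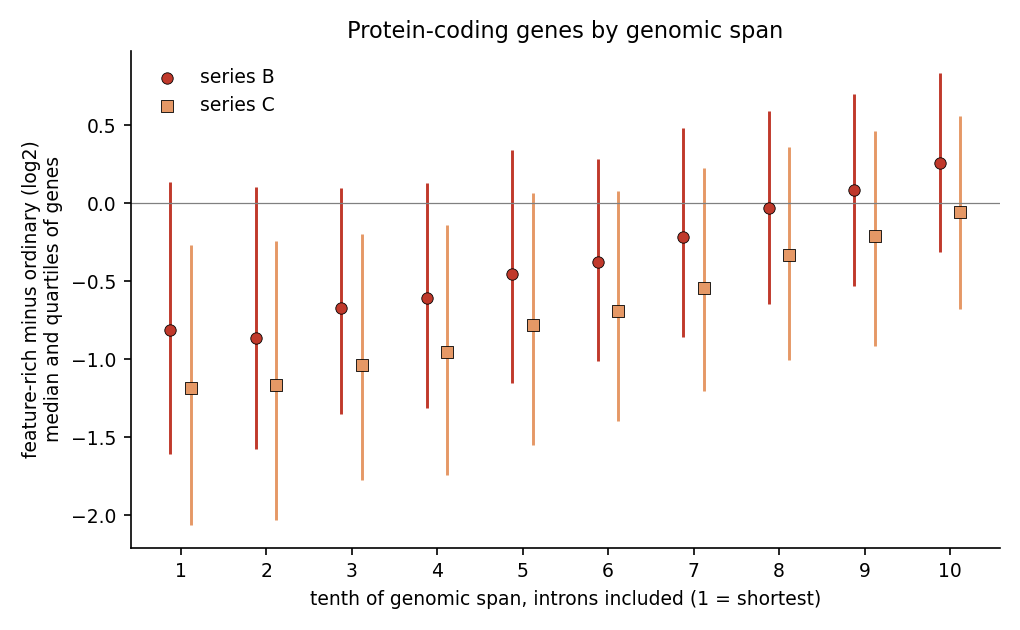
Difference between feature-rich and ordinary libraries (vertical axis, log2) for protein-coding genes in 10 bins of genomic span from shortest to longest (horizontal axis), with medians as points and quartiles as lines, for series B and series C. Medians go from -0.81 to 0.26 in series B and from -1.18 to -0.06 in series C, with wide quartiles in every bin. Another scaling moves the bins up or down, with smaller shifts for genes at low levels.

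Feature-rich libraries were also more uneven among themselves. Over 10820 genes for which the mean of both group medians was at least 10 CPM in series B, a choice made after seeing the data, the median SD between libraries was 0.59 log2 units in feature-rich and 0.18 in ordinary libraries, and 0.62 and 0.27 with all libraries thinned to the same 1.17 M counts. In series C, over 10454 genes, the thinned values were 0.79 and 0.36. With genes chosen by the feature-rich median alone, the thinned values were 0.61 and 0.27 in series B and 0.76 and 0.35 in series C. The number of all features expected above 0 at equal depth had medians of 19435 in feature-rich and 19666 in ordinary libraries of series B and of 17910 and 19756 in series C.

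In 4 feature-rich libraries further features took a visible share. A feature was singled out where it held at least 1% of the remaining counts of a library and at least 100 times its share in any library of the other kind. This gave 9 features, in series B libraries 8 and 16 and series C libraries 3 and 4, and 0 in the ordinary libraries. LOC120102103, annotated as a noncoding RNA, held 28.9% of the remaining counts in series C library 3 and 6.02% in series B library 8, and no more than 8.82e-06% in any ordinary library. Nif3l1, whose share was used to leave libraries out, held 11.4% in series C library 4, 4.09% in series C library 3, 3.36% in series B library 16 and 1.31% in series B library 8. Ikzf2, a transcription factor gene of lymphocytes, held 6.46%, 3.90%, 2.69% and 1.04% in the same libraries. The others were C13H1orf202, Ly96, Henmt1, Tent5c, Pi15 and LOC134486735. In the 9 libraries of series B that were left out, Nif3l1 held 30.5% to 53.1% of the remaining counts, Ikzf2 7.88% to 20.3%, C13H1orf202 4.04% to 9.05%, Ly96 2.33% to 6.18% and Pi15 1.66% to 7.04%. These 5 had smaller shares in the 4 feature-rich libraries than in any of those 9. Another 4 features reached more in a feature-rich library than in any left-out one. LOC120102103 reached no more than 2.39% in the left-out libraries of series B and 2.4% in the 1 of series C, LOC134486735, at 1.10% in series C library 3, no more than 0.097% and 0.099%, and Tent5c, at 2.54% in series C library 3, no more than 0.0787% and 0.0676%. Henmt1, at 1.04% in series C library 4, reached no more than 0.827% and 0.75% there.

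Within a group, depth was compared with the gene classes, since depth was not used to form the groups. Over the 18 feature-rich libraries of series B, the log10 of the remaining counts correlated with the respiratory chain deviation at r = 0.74 (permutation test with 100000 permutations, two-sided p = 0.00068, Benjamini-Hochberg adjusted over 32 relations 0.022), and Spearman's rho was 0.55 (permutation p = 0.019, adjusted 0.20). For ribosomal proteins r was 0.69 (permutation p = 0.0019, adjusted 0.031) and rho 0.48 (permutation p = 0.044, adjusted 0.35). Without the 2 libraries farthest from the median depth, r was 0.33 and 0.27, so both relations rest on those libraries. Long neuronal genes gave r = -0.62 (permutation p = 0.0062, adjusted 0.066), rho = -0.24 (permutation p = 0.33, adjusted 0.75) and r = 0.13 without the 2 farthest. Over the 8 feature-rich libraries of series C, r was 0.88 for respiratory chain genes (exact permutation p = 0.011, adjusted 0.091) and 0.87 for ribosomal proteins (exact permutation p = 0.015, adjusted 0.099), and 0.09 and -0.04 without the 2 farthest. Their rho values were 0.62 (exact permutation p = 0.12, adjusted 0.61) and 0.48 (exact permutation p = 0.24, adjusted 0.66). In the ordinary libraries, r of depth with respiratory chain genes was -0.32 in series B (n = 7, exact permutation p = 0.49, adjusted 0.74) and -0.30 in series C (n = 16, permutation p = 0.27, adjusted 0.65). In the same order, rho was -0.25 (exact permutation p = 0.59) and -0.11 (permutation p = 0.68), and r without the 2 farthest was -0.03 and -0.43. Of the 32 relations, 16 were with depth, and 2 of these passed an adjusted 0.05 for r and 0 for rho. The others used the ratio of the 2 features whose shares formed the groups and are not reported.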

How the data were processed

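The data are polyA RNA-seq libraries of the rat rostromedial tegmental nucleus. The authors deposited 1 table of 38354 features whose values are log2 of an estimated count plus 1, per the file headers and the values. The estimates were made with kallisto 0.48, per the submitters' processing notes, and the genome build is not given in the sources used here. Among estimated counts between 0 and 20, a share of 48.1% lay within 0.01 of a whole number, so reads were shared among features. Biotype and genomic span came from the RefSeq table of GRCr8, in which 38278 symbols matched, and every matched position equalled an end of that gene.

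The deposited log2 values were turned back to estimated counts, the libraries were split as the report describes, and CPM was computed on totals outside LOC120093067, Zfp532 and 158 other ribosomal RNA features. Genes were kept where log2(CPM + 1) was at least 1 in at least 20% of the libraries compared within a series, which left 20694 genes in series B and 19824 in series C. A call needed a difference of medians of at least 1 log2 unit. With M for 1e+06, totals over all features ran from 2.29 to 50.2 M per used library, and PCR copies are not told apart from molecules in such counts. No test was made between feature-rich and ordinary libraries, because a measured share formed them. Correlations with depth within a group were tested with permutation tests. Nothing says that samples are more than single animals of an outbred stock, so the spread is that between samples.

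The members, the lists of genes and the alternatives were chosen with earlier results of these data known. Of 49 lists, up to 4 genes lowest and 4 highest in series B could be named, and outside them the 12 most lower and 12 most higher genes whose groups were apart in series B, passing over symbols such as those starting with LOC. The alternatives were other pseudocounts, filters, scalings, thresholds of the split, thinned counts, means in place of medians, and subsets of libraries. Python 3.11.15, numpy 2.4.6, scipy 1.17.1, pandas 2.3.3 and matplotlib 3.10.9 were used, and the calculation was tested on simulated data. No sequence is printed, since none of the 2 features was at hand.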

Additional observations from a re-analysis of the deposited data

Results flagged for a closer look

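Each set of 4 to 10 libraries was searched for a single library far from the others by Dixon's criterion, and 8 of 44 sets had one. The usual rate of 1 in 20 is no yardstick here, because the sets share libraries. Deviations of ordinary libraries are also taken from the median of those same libraries. In the feature-rich libraries of series C, library 1 stood apart with a total of 12.7 M counts (M stands for 1e+06). Library 3 of the same group stood apart in 3 classes, with deviations of -0.85 log2 units for long neuronal genes, -1.29 for astrocyte markers and -2.60 for microglia markers, beside -1.23 for all genes, so only the microglia value lay well below that of all genes. Library 3 also had the lowest protein-coding share, 53.5%, and the large share of LOC120102103 given above. In the ordinary libraries of series B, 1 library each stood apart at 0.21 for neuropeptide and granin precursors, 1.31 for dopamine neuron markers, 0.34 for oligodendrocyte markers and 0.042 for all genes. For all genes both the lowest and the median deviation of these 7 libraries were 0, so even a small value stood apart.

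Nif3l1 was used only to leave libraries out, yet it appeared in libraries that were kept. Its highest share of all counts was 1.92% in feature-rich libraries of series B and 6.79% in those of series C, while no ordinary library exceeded 0.00152% and 0.00166%. It was above the highest ordinary library in 7 of 18 feature-rich libraries of series B and in 4 of 8 of series C, and at 0.1% or more in 2 and 3 of them. The other 11 and 4 feature-rich libraries lay below every ordinary one.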

How the results depend on the processing

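Of 184 values of counts, class medians and depth relations under other settings, 163 stayed within the limits used here, and of 4980 values for single lists and genes 4514 did. With a pseudocount of 5 CPM, 2884 genes were lower and 1872 higher in series B, and 4161 and 1396 in series C. With a mean of at least 10 CPM required, only 11039 genes were kept in series B and 10802 in series C. Of these, 1792 were higher in series B, and 4156 lower and 1372 higher in series C. With totals over every feature, 8245 genes were lower and 1112 higher in series B and 9798 and 858 in series C, and long neuronal genes had medians of -0.17 and -0.39. The cause of these moves was not tested.

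Only series B feature-rich library 6 had a total outside the excluded features within the range of the ordinary libraries, and compared with the 1 ordinary library in that range it had a respiratory chain difference of 1.11 and a long neuronal difference of -0.78. In series C no library did by that total, and no value could be had. In that comparison of 1 library with 1, differences also had the opposite sign for complex I (1.22), complex III (0.16), complex IV (1.36), ATP synthase (1.04), ribosomal proteins (1.42, and 1.42 for each subunit), mitochondrial ribosomal proteins (0.37), microglia (0.87) and erythroid genes (2.62). Among single genes they were positive for Aif1 (2.07), Aldoc (0.10), Atp5mc1 (2.12), C1qb (1.0), Cox5b (1.73), Cryab (0.89), Ftl1 (0.65), Ndufv2 (0.13), Pnoc (0.60), Ppia (0.29), Psmb6 (1.16), Rps19 (2.10), S100b (1.36), Snrpg (1.65), Sst (1.51) and Uqcr11 (2.09). They were negative for Arid1a (-0.36), Arid1b (-1.03), Cacna2d2 (-0.085), Dlg2 (-0.31), Fgf14 (-0.23), Gabra2 (-0.95), Hsp90aa1 (-0.13), Kcnk9 (-0.70), Macrod2 (-0.47), Olig1 (-0.21), Oprm1 (-0.22), Pecam1 (-0.079), Rab3c (-0.19), Slc4a4 (-0.26) and Sox9 (-0.48).

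Among the libraries of series C higher for Xist, 2 feature-rich and 6 ordinary, 2985 genes were lower and the respiratory chain median was -0.53. The sign turned for ribosomal proteins (0.40, with 0.44 for the large and 0.38 for the small subunit), the nuclear long noncoding RNAs (0.33), Aif1 (0.068), Cacna2d3 (0.069), Cldn11 (-0.33), Gabra2 (-0.12), Rps19 (0.62), S100b (0.83), Sst (0.23), Uqcr11 (0.48) and Ywhaz (-1.42). In series B, depth without the 2 farthest libraries gave r = 0.33 for respiratory chain genes (permutation test, adjusted p = 0.93) and 0.27 for ribosomal proteins (permutation test, adjusted p = 0.93). With median-ratio scaling it gave 0.63 for ribosomal proteins (permutation test, adjusted p = 0.056) and -0.82 for long neuronal genes (permutation test, adjusted p = 0.0029). No paired analysis was possible because all samples carry 1 group label and no test was made between groups. Depth limits the feature-rich libraries most, since some hold only 1.17 M counts outside the excluded features.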

Other observations

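Some gene families that the report does not describe lay near the median of all genes and others did not. Relative to that median, solute carrier genes lay at -0.13 in series B and -0.10 in series C. Uncharacterised LOC genes lay at 0.66 and 0.82, olfactory receptor genes at 0.65 and 0.96, and erythroid genes at -1.19 and -1.16. In series B only 5527 of 15558 LOC genes and 22 of 1277 olfactory receptor genes were kept. A low gene could pass the filter through libraries of 1 kind alone. The medians of these 2 families therefore depend in part on the filter and the scale. Of uncharacterised LOC genes, 1770 of 5527 were higher and 271 lower in feature-rich libraries of series B (median 0.58), and 1326 of 4881 were higher and 469 lower in series C (median 0.39, or -0.19 with totals over every feature). Over all genes, 21.7% were lower and 16.4% higher in series B, and 32.3% and 12.7% in series C. Of zinc finger genes named Zfp or Znf, which share a name with Zfp532, 90 of 369 were lower and 34 higher in series B (24.4% and 9.21%). In series C 131 of 367 were lower and 24 higher (35.7% and 6.54%). Solute carrier genes, which move nutrients and ions across membranes, were lower in 69 and higher in 33 of 283 in series B (24.4% and 11.7%). In series C they were lower in 98 and higher in 27 of 276 (35.5% and 9.78%). The lower shares of zinc finger and solute carrier genes were near those of all genes. Clustered protocadherins, which give neurons their surface identity, were higher in 8 and lower in 2 of 37 in series B, and higher in 4 and lower in 6 of 36 in series C. Replication-dependent histone genes, whose messages end without a poly(A) tail in dividing cells, were lower in 5 and higher in 1 of 15 in series B, and lower in 6 and higher in 1 of 13 in series C.

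Smaller lists gave these counts, to be read beside 21.7% lower and 16.4% higher of all genes in series B and 32.3% and 12.7% in series C. Translation elongation factors were lower in 1 of 6 genes in series B and 4 of 6 in series C. Erythroid genes were lower in 3 of 5 and 4 of 5. Voltage-gated sodium and calcium channels were lower in 1 and higher in 3 of 24 in series B, and lower in 8 and higher in 1 of 24 in series C. Serotonin neuron markers were lower in 2 and higher in 1 of 5 in series B, and lower in 2 of 5 in series C. Choroid plexus and ependyma genes were lower in 1 and higher in 1 of 4 kept in each series, and cerebellar genes in 1 and 1 of 5. Forebrain genes gave 0 of 5 in series B and 2 of 3 lower in series C. Of olfactory receptor genes, 22 of 1277 were kept in series B, with 4 higher, and 18 in series C, with 2 higher and 2 lower. Small nucleolar RNA genes were lower in 3 and higher in 3 of 17 in series B, and lower in 6 and higher in 3 of 13 in series C. MicroRNA genes were lower in 3 and higher in 2 of 7 in series B, and lower in 3 and higher in 1 of 6 in series C. Of 5 nuclear long noncoding RNAs, 4 were lower in each series, and 1 of those in series B is Xist, which was the higher gene in 5 of 7 ordinary against 6 of 18 feature-rich libraries there. The class median in series C, -1.63, was 0.33 within libraries higher for Xist. Sex chromosome genes were higher in 4 and lower in 1 of 5 in series B, where Ddx3y was the higher gene in more of the feature-rich libraries, and higher in 1 and lower in 1 of 5 in series C. Of 7 features listed as ribosomal RNA, 2 were kept, and the RefSeq table does not annotate these 2 as ribosomal RNA. Of the 2, 1 was higher in each series, and 1 was lower in series B.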
